A study of Homo sapiens with 12 samples.

Results

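The syndecans and glypicans are the membrane-bound carriers of heparan sulphate, and all 10 human members (*SDC1* to *SDC4* and *GPC1* to *GPC6*) were among the 23346 genes of the expression table. They were chosen by gene symbol, and the family was selected on these data because *SDC2* moved in opposite directions in the 2 cell lines. The lines were SW1990 and CFPAC-1, established lines of human pancreatic adenocarcinoma, each grown as a monolayer. Cells were stained with the antibody GCTM-5, which binds a secreted and cell surface glycoprotein complex, and only the strongly stained (GCTM-5 positive) and the unstained (GCTM-5 negative) cells were sorted. RNA-seq of polyadenylated RNA gave 3 samples each of SW1990 negative, SW1990 positive, CFPAC-1 negative and CFPAC-1 positive cells, 12 in all, and no group carried a genetic change or drug treatment made for the study. Each line comes from 1 tumour, so a difference between the lines is a difference between 2 cultures. The triplicates are sorts of these lines and are not stated to be separate cultures, so p-values measure the spread between these samples, which may be technical.

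Heparan sulphate chains are built on the protein cores in the Golgi, and at the cell surface they hold growth factors, chemokines and morphogens such as FGFs, Wnts and Hedgehog near their receptors. Syndecans cross the membrane once and have a short cytoplasmic tail that meets PDZ proteins, kinases and the cytoskeleton, and their ectodomains can be shed by proteases. Glypicans lack such a tail and are tied to the outer membrane by a glycosylphosphatidylinositol anchor. In duct epithelia *SDC1* and *SDC4* are the usual syndecans, whereas *SDC2* is better known from mesenchymal and endothelial cells and *SDC3* from nerve and muscle.

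On GRCh37 the 10 genes lie on 7 chromosomes, and 2 pairs are neighbours. *GPC5* (chr13:92050875-93525935, plus strand) and *GPC6* (chr13:93879060-95060274, plus strand) are 353124 bases apart. *GPC4* (chrX:132434131-132549517, minus strand) and *GPC3* (chrX:132669773-133121127, minus strand) are 120255 bases apart. *SDC1* (chr2:20400558-20425194) and *GPC1* (chr2:241375080-241407493) share a chromosome but not a neighbourhood. The others are *SDC3* (chr1:31342313-31381605), *SDC4* (chr20:43953928-43977064), *GPC2* (chr7:99767229-99775004) and *SDC2*, whose position is given with its values. All are annotated as protein coding. Values of an RNA-seq table are per gene, so they do not say which transcript start was used.

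The 250 bases before the annotated start are shown for *SDC3* and *SDC4*, whose levels separated the sorted cells of SW1990, and for *GPC4* and *GPC6*, whose levels separated the lines. *GPC6* also separated the sorted cells of both lines. The sequences shown are a selection, since other members separated groups too. They are RefSeq sequences of GRCh38.p14, written 5′ to 3′ on the strand of the gene, and capitals mark the letters CAGGTG or their reverse complement CACCTG, an E-box that was searched for on both strands. The regions are chr1:30908759-30909008 (minus) for *SDC3*, chr20:45348425-45348674 (minus) for *SDC4*, chrX:133415490-133415739 (minus) for *GPC4* and chr13:93226557-93226806 (plus) for *GPC6*.
SDC3: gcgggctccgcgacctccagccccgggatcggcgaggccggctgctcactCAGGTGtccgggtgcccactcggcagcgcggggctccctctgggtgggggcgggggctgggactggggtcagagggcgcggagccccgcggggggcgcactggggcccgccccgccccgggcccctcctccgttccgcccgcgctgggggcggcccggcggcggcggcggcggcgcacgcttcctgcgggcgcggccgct
SDC4: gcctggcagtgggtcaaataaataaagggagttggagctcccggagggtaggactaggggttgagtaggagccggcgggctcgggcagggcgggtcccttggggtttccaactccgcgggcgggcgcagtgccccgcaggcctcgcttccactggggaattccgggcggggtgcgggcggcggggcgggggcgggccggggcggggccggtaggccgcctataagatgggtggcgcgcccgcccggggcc
GPC4: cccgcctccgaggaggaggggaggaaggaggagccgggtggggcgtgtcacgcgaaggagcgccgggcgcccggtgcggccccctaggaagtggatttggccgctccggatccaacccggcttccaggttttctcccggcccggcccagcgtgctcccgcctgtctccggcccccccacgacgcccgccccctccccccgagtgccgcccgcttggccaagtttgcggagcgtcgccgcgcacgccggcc
GPC6: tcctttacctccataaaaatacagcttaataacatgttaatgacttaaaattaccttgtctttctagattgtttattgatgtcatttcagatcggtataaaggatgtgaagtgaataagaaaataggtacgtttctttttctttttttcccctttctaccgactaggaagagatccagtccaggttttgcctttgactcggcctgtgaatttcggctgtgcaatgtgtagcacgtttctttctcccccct
G and C made up 83.6% of the *SDC3* sequence, 73.6% of *SDC4*, 76.0% of *GPC4* and 37.6% of *GPC6*, against a median of 58.0% over the 35116 promoters of this length. *SDC3* held 1 E-box match and the other 3 held 0, and 17.5% of all promoters held at least 1. *SDC1*, which has 2 listed starts, held 1 match before one of them and 0 before the other. No match says only that these letters are not in this window.

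Levels are the RPKM of the authors (reads scaled to gene length and library size), which are per length and can be set side by side between genes. Library totals ran from 9969697 to 26159330 reads. The shallowest library, CFPAC-1 positive replicate 3, also stood apart from its group, with a root mean square log2 distance of 0.635 from the other samples of its group against 0.387 to 0.506 for the 11 others. For some results the value without it is also given, and all others include it. Fold changes are on the scale of log2(RPKM + 0.1) and were fitted with limma over the 16236 genes with a mean of at least 0.1 RPKM. A call within a line, or between lines, needed a change of over 2-fold and p under 0.01 before adjustment, and a difference of changes between lines was called at an adjusted p under 0.05 (Benjamini-Hochberg over all genes fitted, as are all adjusted p-values below). Of the members, 9 passed the filter and *GPC5* did not. *SDC2* was picked for its pattern and is described with no test, which leaves 8 members with a test.

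Duct epithelial markers were present in all 4 groups, with a summed level of *KRT7*, *KRT8*, *KRT18*, *KRT19*, *EPCAM* and *CDH1* between 1595 RPKM in the lowest SW1990 negative sample and 8162 in the highest CFPAC-1 positive one. The leukocyte genes *PTPRC* and *CD3E* were at or near 0 in all groups. In SW1990, 5 of the 6 epithelial markers were called higher in GCTM-5 positive cells, and their sum was 1810 ± 188 RPKM in negative and 4535 ± 266 in positive cells (mean ± SD, n = 3, as throughout). The 3 endothelial markers summed to 14.8 to 18.8 RPKM in SW1990 negative samples and 1.47 to 2.05 in positive samples, mostly *CDH5*, and the 5 fibroblast markers to 12.6 to 22.6 and 3.90 to 4.86 RPKM, mostly *LUM* and *COL1A1*, with *COL1A2* and *DCN* at or near 0. The 4 leukocyte markers, mostly *CD68*, summed to 34.6 to 48.5 RPKM in SW1990 negative and 15.4 to 33.0 in positive samples, and to 111 to 167 in CFPAC-1 samples. In CFPAC-1 the epithelial sum was 5812 ± 383 RPKM in negative and 7266 ± 789 in positive cells, again with no overlap, though 0 of the 6 markers passed 2-fold. *KRT7* (log2 0.86, adjusted p = 0.00566), *KRT18* (log2 0.70, adjusted p = 0.00103) and *KRT8* (log2 0.70, adjusted p = 0.00649) were higher. The changes of *CDH1* (log2 0.31, adjusted p = 0.115), *KRT19* (log2 -0.14, adjusted p = 0.361) and *EPCAM* (log2 -0.08, adjusted p = 0.729) were small, the last 2 downward. *CD14* was called lower in positive CFPAC-1 cells (log2 -1.54, adjusted p = 0.000977), and the endothelial and fibroblast sums reached at most 0.485 and 2.39 RPKM. The 4 marker sums thus moved with the sort in SW1990, and the epithelial sum in CFPAC-1, and their part in the results was not tested. In such bulk samples, fewer cells of a type and less RNA per cell cannot be told apart.

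*SDC1* and *SDC4* were the leading members in all groups (plot of levels by sample). Each lay above the 95th percentile of all 23346 genes, between 95.7 and 99.0. Behind them, SW1990 cells had *GPC1* and *SDC3*, whereas CFPAC-1 cells had *GPC4* and then *GPC1*, *SDC3* and *GPC6*, with *SDC2* between *SDC3* and *GPC6* in positive cells. *GPC2*, *GPC3* and *GPC5* stayed below 0.75 RPKM in every sample.

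**Figure D1:**
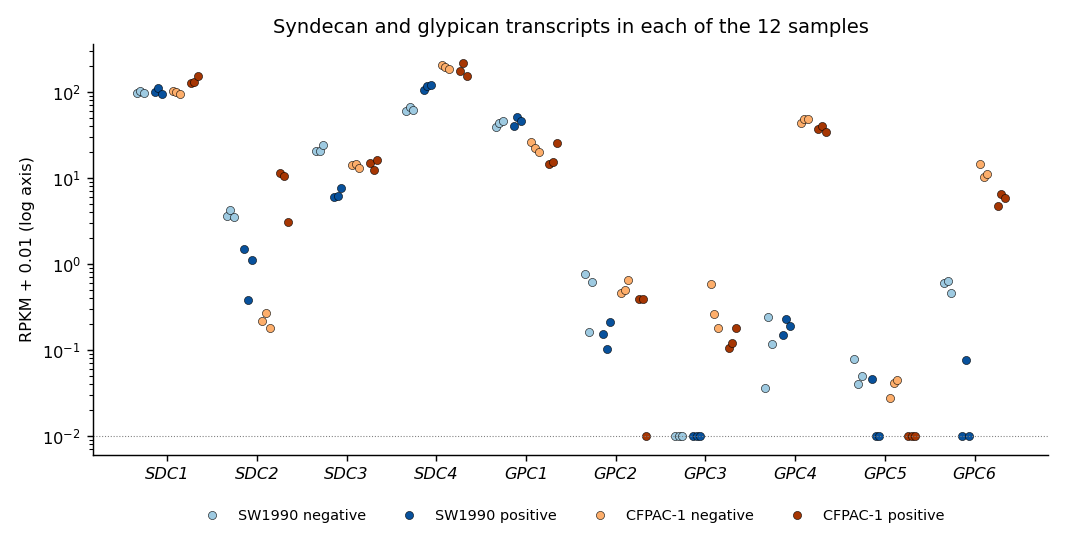
Level of each of the 10 genes in each of the 12 samples, as RPKM + 0.01 on a log axis, with one colour per group and the dotted line at 0 RPKM. *SDC1* and *SDC4* sit at the top in every group, *GPC4* and *GPC6* are high only in the 6 CFPAC-1 samples, and *SDC2* changes its order of groups between the lines.

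*SDC1*, the chief syndecan of epithelia, was the most even member. Its levels were 97.6, 103 and 98.2 RPKM in SW1990 negative samples and 102, 111 and 95.2 in positive samples. They were 102, 102 and 94.0 in CFPAC-1 negative samples and 128, 132 and 152 in positive samples. The positive CFPAC-1 samples thus lay above all 9 others, while the SW1990 groups overlapped. In CFPAC-1 the difference was 1.38-fold (log2 0.46, SE 0.09, adjusted p = 0.00196), under the 2-fold threshold, and without replicate 3 of the positive cells it was 0.39 (adjusted p = 0.00371). In SW1990 it was 0.04 on the log2 scale (SE 0.09, adjusted p = 0.803). The difference between the changes in the lines was called at -0.43 (SE 0.13, adjusted p = 0.0258), but it was -0.28 with an adjusted p of 0.182 once each sample was centred on its median. It also lost its call when SW1990 negative replicate 2 (-0.40, adjusted p = 0.0580), SW1990 positive replicate 3 (-0.37, adjusted p = 0.0716) or CFPAC-1 negative replicate 3 (-0.39, adjusted p = 0.0698) was left out.

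*SDC4*, which sits in focal adhesions and activates protein kinase C alpha, separated the sorted cells of SW1990 but not those of CFPAC-1. SW1990 negative samples had 59.7, 67.7 and 61.5 RPKM and positive samples 107, 119 and 120, with no overlap. CFPAC-1 negative samples had 208, 197 and 184 RPKM and positive samples 175, 220 and 154, which overlapped and with an SD of 33.8 in the positive cells. The SW1990 difference was 1.83-fold (log2 0.87, SE 0.12, adjusted p = 0.000177), not called only because of the fold threshold, and the CFPAC-1 difference was -0.11 (SE 0.12, adjusted p = 0.50). These changes differed between the lines by 0.98 (SE 0.17, adjusted p = 0.00133), and by 0.87 without CFPAC-1 positive replicate 3 (adjusted p = 0.00146). The ratio of *SDC4* to *SDC1* within a sample, which dividing a sample by 1 factor cannot alter, was 0.631 ± 0.0222 in SW1990 negative and 1.13 ± 0.115 in positive cells, against 1.97 ± 0.0542 and 1.35 ± 0.329 in CFPAC-1.

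*SDC3*, the longest syndecan and the typical one of nerve and muscle, fell with the antigen in SW1990. Negative samples of that line had 20.7, 20.8 and 24.1 RPKM and positive samples 6.09, 6.25 and 7.76. In CFPAC-1 the values were 14.2, 14.7 and 13.2 RPKM in negative and 14.8, 12.5 and 16.1 in positive samples. The SW1990 groups were well apart and the CFPAC-1 groups overlapped. The fold change was -1.70 on the log2 scale in SW1990 (SE 0.12, adjusted p = 1.31e-06) and 0.04 in CFPAC-1 (SE 0.12, adjusted p = 0.858). The difference between these changes was -1.73 (SE 0.18, adjusted p = 4.26e-05).

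*SDC2*, the syndecan of mesenchymal and endothelial cells, was the member for which the family was picked (chr8:97506041-97624018, plus strand, on GRCh37). SW1990 negative samples had 3.62, 4.23 and 3.49 RPKM (215 to 343 reads) and positive samples 1.49, 0.372 and 1.10 (22 to 101 reads). CFPAC-1 negative samples had 0.206, 0.262 and 0.173 RPKM (12 to 20 reads) and positive samples 11.4, 10.6 and 3.08 (107 to 1039 reads). In neither line did the groups overlap, and the order of negative and positive cells was opposite. The group means were 3.82-fold lower in positive than in negative SW1990 cells and 39.1-fold higher in positive than in negative CFPAC-1 cells. On the log2(RPKM + 0.1) scale these changes were -2.00 and 4.55, and -6.55 for their difference. The lowest positive CFPAC-1 value, 3.08 RPKM, belonged to the shallow replicate 3, without which the change in that line was 5.16. Without SW1990 positive replicate 2, the lowest of its group, the change in SW1990 was -1.48. Negative cells thus held more *SDC2* in SW1990 than in CFPAC-1 (17.7-fold by group means), and positive cells less (8.46-fold).

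**Figure D2:**
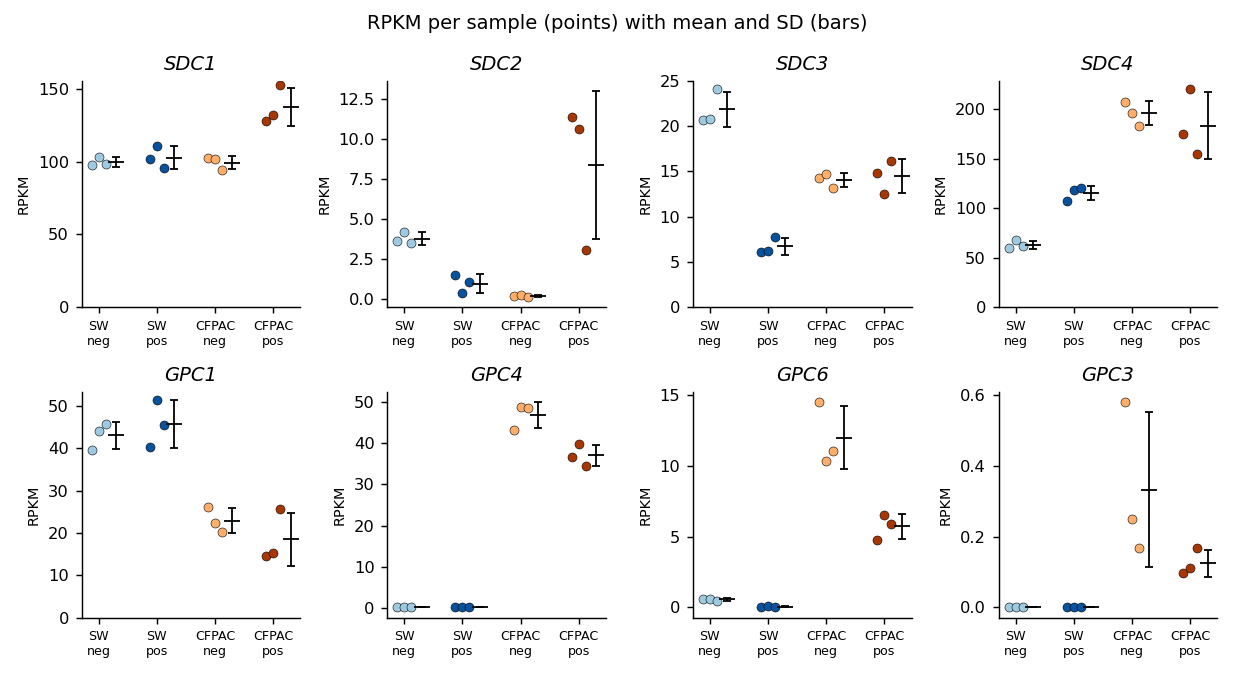
RPKM of 8 members in each sample (points) with the mean and SD of 3 samples (bars), one panel per gene with its own linear axis from about 0. *SDC2* is lower in positive SW1990 cells and higher in positive CFPAC-1 cells, *SDC3* is lower in positive SW1990 cells only, and *GPC4*, *GPC6* and *GPC3* are at or near 0 in SW1990.

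*GPC1*, the glypican most often described in pancreatic cancer cells, was the main glypican of SW1990. Its values were 39.5, 44.0 and 45.7 RPKM in SW1990 negative and 40.2, 51.4 and 45.6 in positive samples. In CFPAC-1 they were 26.2, 22.3 and 20.3 RPKM in negative and 14.5, 15.3 and 25.7 in positive samples, the last from replicate 3. Sorted groups overlapped in both lines, at log2 changes of 0.08 (SE 0.19, adjusted p = 0.799) and -0.35 (SE 0.19, adjusted p = 0.171). Without CFPAC-1 positive replicate 3 the change in CFPAC-1 was -0.61 (adjusted p = 0.00375), and its difference from SW1990 passed the test at 0.69 (adjusted p = 0.0105), against 0.43 (adjusted p = 0.260) with all samples.

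*GPC6*, a glypican of mesenchyme and growing bone, was lower in GCTM-5 positive cells of both lines. The study names it among genes found on these samples, so its test is not independent evidence. SW1990 negative samples had 0.596, 0.617 and 0.446 RPKM (56 to 102 reads), and positive samples had 0, 0.0664 and 0 (0, 8 and 0 reads). CFPAC-1 negative samples had 14.5, 10.4 and 11.1 RPKM and positive samples 4.77, 6.52 and 5.90. The groups did not overlap in either line. The mean was 25.0-fold lower in positive SW1990 cells, a value that rests on the 8 reads of 1 library, and 2.09-fold lower in positive CFPAC-1 cells. The fitted changes were -2.45 (SE 0.24, adjusted p = 1.22e-05) and -1.05 (SE 0.24, adjusted p = 0.00558), the latter just past 2-fold. Under alternative settings of the fit the SW1990 change ran from -5.83 to -0.60. The CFPAC-1 call was lost without CFPAC-1 negative replicate 1 (-0.90) or positive replicate 1 (-0.92), each by the fold threshold. The difference between the lines was -1.40 (SE 0.34, adjusted p = 0.00964), and its sign depended on the pseudocount, at 0.34 with a pseudocount of 1.

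*GPC4*, which has been linked to Wnt and FGF signalling, separated the lines. SW1990 samples had 0.0262, 0.231 and 0.107 RPKM in negative and 0.139, 0.222 and 0.182 in positive cells, from 2 to 20 reads. CFPAC-1 samples had 43.4, 48.8 and 48.7 RPKM in negative and 36.8, 39.9 and 34.6 in positive cells, from 1281 to 3967 reads. Positive CFPAC-1 samples all lay below the negative ones, but the fitted change was -0.34 (SE 0.27, adjusted p = 0.355). Its neighbour *GPC3*, the glypican of Simpson-Golabi-Behmel overgrowth and of liver cancer, had 0 reads in all 6 SW1990 samples and 4 to 27 reads in each CFPAC-1 sample. The CFPAC-1 values of *GPC3* were 0.581, 0.249 and 0.168 RPKM in negative and 0.0962, 0.112 and 0.168 in positive cells, a change of -0.84 (SE 0.34, adjusted p = 0.0711). *GPC3* passed the filter only through CFPAC-1, so that its line difference had to point that way. On its SW1990 values alone, *GPC4* would also have stayed under a mean of 0.1 RPKM over all samples. Its line calls are thus not independent of the filter.

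*GPC2*, known from the developing nervous system, had 4 to 39 reads in 11 samples and 0 in CFPAC-1 positive replicate 3. Its group means were 0.502 ± 0.311 RPKM in SW1990 negative and 0.145 ± 0.0538 in positive cells, and 0.523 ± 0.0986 and 0.252 ± 0.218 in CFPAC-1. The changes of -1.14 (SE 0.59, adjusted p = 0.180) and -1.12 (SE 0.59, adjusted p = 0.158) did not pass the test. The CFPAC-1 value rests on the 0 reads of positive replicate 3, without which it was -0.37 (adjusted p = 0.555). *GPC5* had 0 to 4 reads in every sample and was not fitted. Reads of both genes were few, and *GPC2* also varied between samples of a group. What part depth had in the lack of a call was not tested.

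*GPC3* is set aside in the counts that follow, since it had no reads in SW1990, which leaves 7 members. Within SW1990, 2 of the 7 were called between sorted cells, *SDC3* and *GPC6*, both lower in positive cells. Over all genes fitted, 4.59% were called higher and 7.48% lower in this comparison. Within CFPAC-1, 1 of the 7 was called, *GPC6*, lower in positive cells, where 5.65% of all genes were called higher and 4.13% lower. *GPC6* was already named by the study from these samples, so its calls were known beforehand. Apart from it, *SDC3* in SW1990 was the only call between sorted cells. The changes of 4 members differed between the lines (*SDC1*, *SDC3*, *GPC6* and *SDC4*), with *SDC4* alone more positive in SW1990, against 26.9% of all genes. Centring each sample on its median moved the median difference of all genes from -0.15 to 0.00, and the share of called differences that were more positive in SW1990 from 34.0% to 50.0%. In CFPAC-1 the same step moved the share of called genes that were higher in positive cells from 57.7% to 45.8%. The plot of changes in both lines gives the pair of values of each member.

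**Figure D3:**
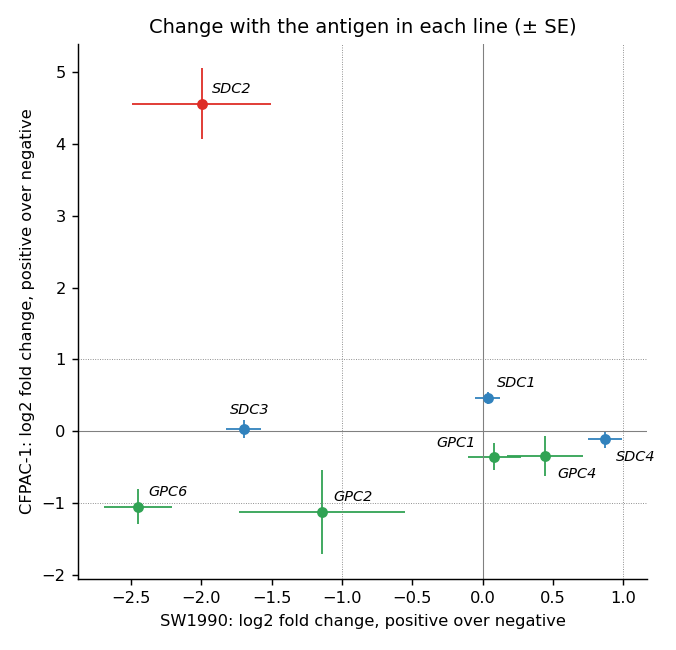
Change of each fitted member with the antigen, as log2 fold change of positive over negative cells with its SE, in SW1990 (horizontal) and CFPAC-1 (vertical). Dotted lines mark 2-fold. *SDC2* lies alone in the upper left at -2.00 and 4.55, *SDC3* has a change in SW1990 only, and *GPC6* is negative on both axes. *GPC3* is left out because SW1990 had 0 reads, and *GPC5* because it was not fitted.

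Between the lines, 3 of the 7 members were called in negative cells, each of them lower in SW1990, where 15.0% of all genes were called lower and 21.9% higher. The median of all genes was 0.19 higher in SW1990 here on the log2 scale, and 0.01 after centring, which turned the balance of calls from 59.4% to 49.5% higher in SW1990. *GPC4* was 387-fold lower by group means (log2 -7.84, SE 0.27, adjusted p = 3.83e-10), on 2, 20 and 7 SW1990 reads, and 708-fold lower without SW1990 negative replicate 2. It is counted among the 3, although it needed its CFPAC-1 values to pass the filter. *GPC6* was 21.7-fold lower (log2 -4.20, SE 0.24, adjusted p = 2.08e-08) and *SDC4* 3.11-fold lower (log2 -1.64, SE 0.12, adjusted p = 1.72e-07). *GPC3* was at least 5.36-fold lower, taking 3 reads per library as the limit of the SW1990 samples, and its call was lost with a pseudocount of 1 (-0.40). *SDC3* was 1.56-fold higher (adjusted p = 0.000645) and *GPC1* 1.88-fold higher (adjusted p = 0.000959), both short of 2-fold. *SDC1* differed by 0.01 on the log2 scale (SE 0.09, adjusted p = 0.953), with the sign turned to -0.18 by centring.

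In positive cells 4 of the 7 members were called between the lines, where 14.8% of all genes were higher and 13.7% lower in SW1990. *GPC1* was higher in SW1990 (2.47-fold, log2 1.34, SE 0.19, adjusted p = 6.33e-05). *SDC3*, which was the higher in SW1990 among negative cells, was 2.16-fold lower there among positive cells (log2 -1.10, SE 0.12, adjusted p = 1.00e-05). *GPC4* was 205-fold lower by group means (adjusted p = 1.22e-09), with the same limit from the filter. *GPC6* was lower at log2 -5.61 (SE 0.24, adjusted p = 2.99e-09), for which no fold of the means is given because a single SW1990 positive library held its 8 reads. Under alternative settings of the fit this log2 value ran from -9.16 to -2.71. *GPC3* was at least 1.79-fold lower, a bound short of 2-fold. *SDC4* was lower by 0.66 on the log2 scale (adjusted p = 0.000476), short of 2-fold. The SW1990 and CFPAC-1 levels of *SDC4* were thus closer in positive than in negative cells, which is the difference of 0.98 given above.

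The makeup of the family within a sample differed with line and antigen. The 10 genes summed to 233 ± 9.35 RPKM in SW1990 negative, 271 ± 15.7 in SW1990 positive, 392 ± 19.0 in CFPAC-1 negative and 405 ± 28.5 in CFPAC-1 positive cells. *SDC1* took 42.9% ± 0.961 of that sum in SW1990 negative and 37.8% ± 2.25 in positive cells, and 25.3% ± 0.390 and 34.0% ± 4.41 in CFPAC-1. *SDC4* took 27.1% ± 0.932 and 42.4% ± 1.73 in SW1990, and 49.9% ± 0.722 and 45.0% ± 5.51 in CFPAC-1. The share of *SDC3* went from 9.41% ± 0.831 in negative to 2.47% ± 0.362 in positive SW1990 cells and was 3.58% ± 0.128 and 3.60% ± 0.666 in CFPAC-1. *SDC2* never took more than 2.96% of the sum in a sample.

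Glypicans made up 19.0% ± 0.873 of the sum in SW1990 negative and 16.9% ± 1.10 in positive cells, and 21.1% ± 0.557 and 15.3% ± 1.44 in CFPAC-1. In both lines the 3 positive samples lay below the 3 negative ones in this share. The glypican sum itself overlapped in SW1990, at 44.3 ± 3.04 RPKM in negative and 46.1 ± 5.63 in positive cells. There the syndecan sum was 188 ± 7.28 and 225 ± 10.1 RPKM. In CFPAC-1 the glypican sum was 82.8 ± 2.15 RPKM in negative and 61.7 ± 4.92 in positive cells. The glypicans behind these shares were not the same. *GPC1* was 97.2% ± 0.646 of the glypican sum in SW1990 negative and 99.2% ± 0.0481 in positive cells, but 27.7% ± 2.88 and 29.7% ± 7.86 in CFPAC-1. There *GPC4* held 56.8% ± 5.12 and 60.4% ± 7.21, and *GPC6* 14.4% ± 2.33 and 9.27% ± 1.08.

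**Figure D4:**
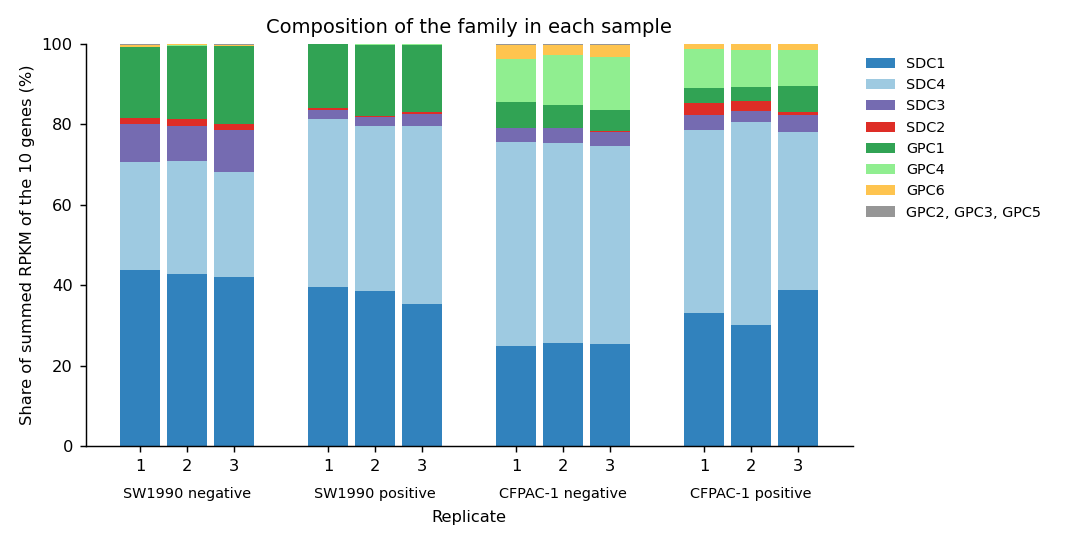
Share of each gene in the summed RPKM of the 10 syndecan and glypican genes, in percent, for each of the 12 samples. *SDC1* and *SDC4* fill most of every bar, *GPC1* is almost the whole glypican part in SW1990, and *GPC4* is the largest glypican part in CFPAC-1.

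In the order of mean levels, 13 of the 36 pairs of neighbours had samples that overlapped, 3 or 4 in each group. In SW1990 positive cells *SDC4* and *SDC1* overlapped at the top, whereas *SDC1* was clear of *SDC4* in SW1990 negative cells and *SDC4* clear of *SDC1* in both CFPAC-1 groups. *SDC3* and *GPC6* overlapped in CFPAC-1 negative cells, and *GPC1* and *SDC3* as well as *SDC2* and *GPC6* in CFPAC-1 positive cells. At the bottom, *GPC2* overlapped with at least 1 neighbour in all 4 groups.

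Over the 12 samples the member pair with the highest Pearson correlation of log2(RPKM + 0.1) was *GPC4* and *GPC6* at 0.92, followed by *SDC4* and *GPC4* at 0.89. *GPC1* and *GPC4* had -0.90. *SDC2* had its highest value with *SDC1*, at 0.52. The points are 2 lines of 6 samples, so line and sort are shared between points, and the values are a description. Among 13267 genes with a mean of at least 1 RPKM, the 5 whose pattern was most like that of *SDC2* were *PRTFDC1* (0.942), *TMEM65* (0.939), *C10orf32* (0.938), *GCLM* (0.934) and *ARHGAP29* (0.934). Their range was smaller than that of *SDC2*. *GCLM*, a subunit of the enzyme that starts glutathione synthesis, had 7.57 ± 0.460 RPKM in SW1990 negative and 5.86 ± 0.487 in positive cells, and 3.15 ± 0.502 and 8.72 ± 1.38 in CFPAC-1.

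Of 12 genes for heparan sulphate chain assembly, 11 were fitted, and *EXTL1* alone was called in SW1990 (higher in positive cells, log2 1.83, at 0.107 ± 0.0506 and 0.626 ± 0.110 RPKM). In CFPAC-1 limma called 0 of the 11. Among all genes fitted, 4.59% were called higher and 7.48% lower in SW1990, and 5.65% and 4.13% in CFPAC-1. The median change of the list was -0.09 and 0.18 in the lines, beside -0.04 and 0.05 for all genes fitted. *EXT1*, a subunit of the chain polymerase, stood at 90.3 ± 3.39 and 59.1 ± 6.40 RPKM in SW1990 and 18.0 ± 1.84 and 20.3 ± 0.770 in CFPAC-1, and its change differed between the lines (-0.80, adjusted p = 0.00133), as did those of *B3GAT3*, *EXTL2* and *EXTL1*, against 26.9% of all genes. Without a fold threshold, 4 genes of the list were called in SW1990, among them *EXT1* (log2 -0.62, adjusted p = 0.000498), and 2 in CFPAC-1. That setting called 4225 and 5131 of the 16236 genes fitted.

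Of 20 genes that sulphate or trim the chains, 13 were fitted. In SW1990, *HS3ST1*, which adds the rare 3-O-sulphate of antithrombin binding sites, rose from 35.5 ± 4.05 to 106 ± 4.89 RPKM (log2 1.59, adjusted p = 0.00103), while *HS6ST3* and *SULF1* were called lower, both under 0.5 RPKM. Both of the latter passed the filter only through SW1990 negative cells (0.451 and 0.452 RPKM), so their call in SW1990 could only be lower. The 3 calls of the list in SW1990 went down to 1 without SW1990 negative replicate 2 or negative replicate 3. In CFPAC-1, *HS6ST1*, a 6-O-sulphotransferase, fell from 30.5 ± 5.23 to 13.1 ± 1.10 RPKM (log2 -1.20, adjusted p = 6.69e-05) and *SULF2*, an extracellular 6-O-endosulphatase, was also called lower. *HS3ST5* rose in CFPAC-1 from 0.627 ± 0.111 to 2.37 ± 0.797 RPKM (log2 1.72, adjusted p = 0.00221), and *HPSE*, the heparanase that cuts the chains, was called higher. The 4 calls in CFPAC-1 went down to 2 without CFPAC-1 positive replicate 1. No gene of this list was called in both lines, but the share of all genes called in both is not given, so nothing is read from this. Shares over all genes were 4.59% called higher and 7.48% lower in SW1990, and 5.65% and 4.13% in CFPAC-1. The median change was -0.09 in SW1990, where *HS6ST2* was listed at 0 in all samples. No median is read in CFPAC-1, where the middle gene, *SULF1*, was listed at 0 in all samples.

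The 10 other carriers of heparan sulphate were all fitted, with 5 called lower and 1 higher in positive SW1990 cells and 1 called higher in positive CFPAC-1 cells, beside 7.48%, 4.59% and 5.65% of all genes. With a pseudocount of 1 the CFPAC-1 count was 0, and without a fold threshold 3. The median change was -0.81 in SW1990 and -0.30 in CFPAC-1. *SPOCK1*, a secreted testican proteoglycan, was called in opposite directions, as the values of *SDC2* ran. It fell from 3.01 ± 0.407 to 0.917 ± 0.193 RPKM in SW1990 (log2 -1.62, adjusted p = 0.000132) and rose from 1.28 ± 0.118 to 3.20 ± 0.791 in CFPAC-1 (log2 1.23, adjusted p = 0.00115). The difference was -2.85 (adjusted p = 5.84e-05). The share of all genes called in opposite directions is not given. *SRGN*, the core of the granule proteoglycan serglycin, fell in SW1990 from 16.5 ± 2.39 to 3.34 ± 0.412 RPKM (log2 -2.27, adjusted p = 6.28e-07), and *COL18A1*, *CD44* and *SPOCK3* were called lower and *SPOCK2* higher.

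Of 12 enzymes that shed or cut the cores, 10 were fitted. *MMP2*, a gelatinase that can cleave syndecan ectodomains, fell in SW1990 from 139 ± 24.4 to 21.3 ± 2.18 RPKM (log2 -2.68, adjusted p = 3.25e-06) and was under 0.1 RPKM on average in both CFPAC-1 groups. *MMP7*, which the study also names from these samples, was called lower in SW1990 at 0.893 ± 0.370 and 0.114 ± 0.0997 RPKM. In CFPAC-1 it stood at 1010 ± 62.6 RPKM in negative and 474 ± 221 in positive cells (log2 -1.19, adjusted p = 0.0439), which was not called. *PCSK6*, a proprotein convertase, was called lower in CFPAC-1, and the 1 call there became 3 without CFPAC-1 positive replicate 3, and 2 without SW1990 positive replicate 3 or CFPAC-1 negative replicate 3. Of the 7 cytoplasmic partners of syndecans, *PRKCA* alone was called. This kinase, which *SDC4* engages, fell in SW1990 from 8.77 ± 0.194 to 1.91 ± 0.384 RPKM (log2 -2.16, adjusted p = 3.54e-07). In CFPAC-1 it was also lower, at 44.6 ± 3.14 and 27.3 ± 2.38 RPKM (log2 -0.71, adjusted p = 0.00163), short of 2-fold. *GIPC1*, a PDZ protein, was higher in positive SW1990 cells (log2 0.95, adjusted p = 1.77e-05), also short of 2-fold. The median changes of the 2 lists were between -0.18 and 0.03 in both lines. Calls of these lists were all lower, beside 7.48% of all genes called lower in SW1990 and 4.13% in CFPAC-1.

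Of 14 ligands that bind heparan sulphate, 10 were fitted, with median changes of -0.39 in SW1990 and -0.10 in CFPAC-1. The chemokine *CXCL8* (listed as *IL8*) was called in opposite directions. It fell in SW1990 from 92.7 ± 18.3 to 17.8 ± 7.44 RPKM (log2 -2.43, adjusted p = 2.74e-05) and rose in CFPAC-1 from 21.2 ± 4.18 to 77.5 ± 15.0 (log2 1.87, adjusted p = 0.000318). The difference was -4.30 (adjusted p = 1.34e-05), again without the share of all genes called in opposite directions. *CXCL12* fell in SW1990 from 8.18 ± 0.864 to 0.171 ± 0.0871 RPKM (log2 -4.97, adjusted p = 1.58e-07), and *SHH* was called lower. Only SW1990 negative cells carried *CXCL12* past the filter, so its call in SW1990 could only be lower. *HBEGF*, a heparin-binding EGF receptor ligand, rose in SW1990 from 9.84 ± 2.53 to 23.5 ± 2.56 RPKM (log2 1.27, adjusted p = 8.92e-05). In CFPAC-1, *FGF2* and *AREG* were called higher, and *PTN*, the growth factor pleiotrophin, fell from 2.93 ± 0.544 to 1.08 ± 0.375 RPKM (log2 -1.40, adjusted p = 0.0119). The 4 ligand calls in CFPAC-1 ran from 2, without CFPAC-1 negative replicate 3 or positive replicate 1, to 6, without positive replicate 3, and were 1 with a pseudocount of 1. Beside the ligand calls, 4.59% of all genes were called higher and 7.48% lower in SW1990, and 5.65% and 4.13% in CFPAC-1.

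**Figure D5:**
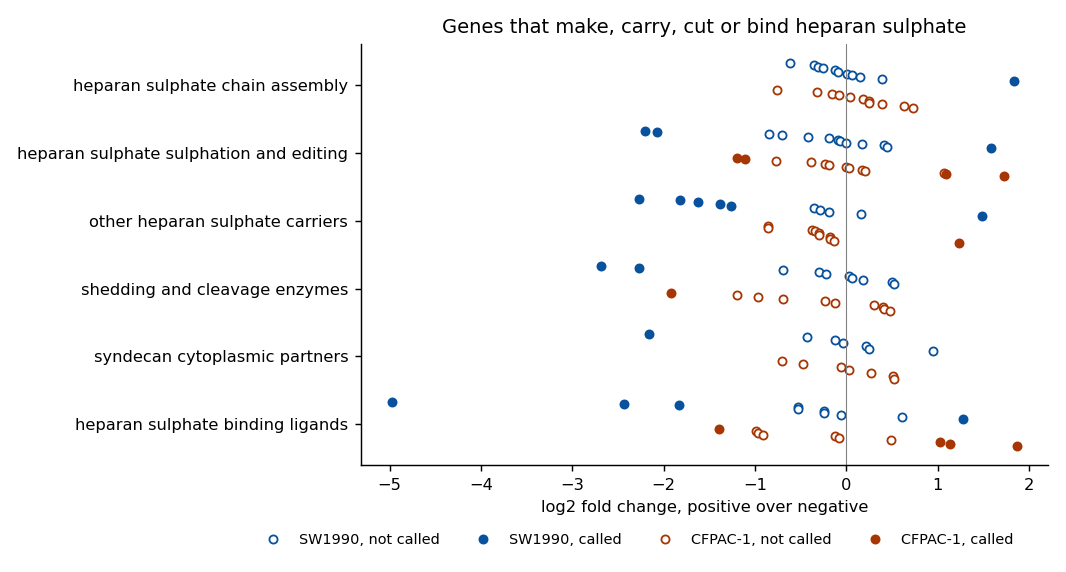
Log2 fold change of GCTM-5 positive over negative cells for each fitted gene of 6 heparan sulphate lists, in SW1990 (blue) and CFPAC-1 (red), with filled points for genes called in that line. *EXTL1* is the only filled point among the chain assembly genes, other carriers lean to the left in SW1990, and each line has called genes on both sides in the sulphation and ligand lists.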

How the data were processed

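RNA from 12 samples of sorted SW1990 and CFPAC-1 cells was sequenced (3 per line and GCTM-5 status). QuasR was used by the authors for alignment (hg19/GRCh37) and for the deposited RPKM, reads per gene scaled to its length and to library size. The annotation, the use of strand and software versions are not given in the sources used here. bcl2fastq is in the submitters' processing notes. The labels and the methods differ on library kit, secondary antibody and medium. The study's TCC test was not used.

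Library totals and reads were recovered from the RPKM with single-exon gene lengths (GENCODE 44 on GRCh37), to within 0.01 of a read. Totals of 9969697 to 26159330 reads set the precision, and read limits (3 reads per library for a count of 0) cover counting error only. For the 16236 genes whose RPKM averaged 0.1 or more, limma 3.58.1 (R 4.3.3) was run on log2(RPKM + 0.1) as 4 group means (eBayes with trend, 2-sided), after tests on simulated data. Called genes changed over 2-fold at p under 0.01, the study's thresholds with p read as unadjusted. Python 3.11.15 with pandas 2.3.3, numpy 2.4.6 and matplotlib 3.10.9 made the remaining values.

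Members and lists were chosen with earlier results of these data known. Named with values were all 10 members, list genes called in both lines, per list and line the called genes with the largest rise and fall at a group mean of at least 1 RPKM, and the 5 genes most correlated with *SDC2*. Other list and marker genes, *EXTL1*, *EXT1*, *MMP7* and *GIPC1* with values among them, were named after their values were seen. Older symbols were matched through RefSeq synonyms.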

Additional observations from a re-analysis of the deposited data

Results flagged for a closer look

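For 5 members, the change between GCTM-5 positive and negative cells differed between the lines, as change in SW1990 minus change in CFPAC-1 on the log2(RPKM + 0.1) scale. By the fitted test of that difference they were *SDC1* (-0.43), *SDC3* (-1.73), *SDC4* (0.98) and *GPC6* (-1.40). The fifth, *SDC2* (-6.55), is listed because every positive SW1990 sample lay below the negative ones and every positive CFPAC-1 sample above them, and this difference was not tested, since the gene was picked for it.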

How the results depend on the processing

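With a pseudocount of 1, 1 member was called between sorted cells in SW1990 (2 with 0.1) and 0 in CFPAC-1 (1 with 0.1), and 1101 genes (of 1961), 759 (of 1588) and, between positive cells of the lines, 2965 (of 4627). With a pseudocount of 0.01, 0 members were called in CFPAC-1. Without a fold threshold, 2 members were called in CFPAC-1, and 4225 genes in SW1990, 5131 in CFPAC-1, 10040 (of 5993) between negative and 8822 between positive cells. Asking for over 2-fold in the difference between lines left 2 members (of 4) and 2391 genes (of 4374). Leaving out single libraries gave 0 to 2 members in CFPAC-1, with 0 without negative replicate 1 or positive replicate 1 and 2 without negative replicate 3. *GPC6* in SW1990 was -0.60 and in CFPAC-1 -0.94 with a pseudocount of 1, and its difference between lines -1.10 (adjusted p = 0.0506) with quantile normalization. *GPC4* differed between lines at 1.13 (adjusted p = 0.0154) without SW1990 negative replicate 2.

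Signs turned for small or sparse values. They were *SDC1* in SW1990 (-0.0037 with quantile normalization, -0.019 to 0.090 without single libraries), *SDC3* in CFPAC-1 (-0.064 with median centring, -0.069 with quantile normalization, -0.046 to 0.14), *GPC1* in SW1990 (-0.0050 to 0.17), *SDC4* in CFPAC-1 (-0.25 to 0.0031) and *SDC1* between negative cells (-0.18 with median centring, -0.032 to 0.027). *GPC6* turned in the difference between lines (0.34, pseudocount 1). *GPC2* turned in that difference (0.70 with pseudocount 0.01, 0.13 with centring, 0.25 with quantile normalization, 0.11 with voom, -0.77 to 0.36 without single libraries), between negative cells (-0.55 to 0.32) and between positive cells (0.38 with pseudocount 0.01, -0.99 to 0.14). The causes were not tested. For *SDC2* no alternative turned the direction in either line, which is no support, since the gene was picked for these directions in the same samples. With a pseudocount of 1 its change in CFPAC-1 was 2.79, the difference between lines -4.09 and the difference between negative cells 1.97.

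Whether positive and negative samples of the same replicate number came from the same sort is not stated. Same-numbered deviations correlated at -0.06 to 0.18, which cannot decide it, and the main fit did not pair the samples. With a replicate block, *SDC1* no longer differed between lines (-0.43, adjusted p = 0.0514). Reads were few for *GPC2*, *GPC3* and *GPC5*, at most 39 in a sample.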
